A study of Mus musculus with 9 samples.

Results

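Nckap1l, Coro1a, Ptprc, Lcp1, Fgr, Vav1, Rac2, Was and Dock2 are 9 mouse genes whose products form the actin and kinase signaling machinery of leukocytes, and they are 9 of the 16755 genes in the authors' table for these livers. They were chosen by name from that table with the 3 group means of each gene known, so their levels are given as a description and no test of them was made.

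In blood-derived cells, receptors and integrins at the membrane activate Src-family and Syk kinases, and the receptor phosphatase CD45 sets how readily those kinases respond. The kinases switch on exchange factors that load GTPases of the Rac family, and the GTPases act through the WAVE complex and WASP on the Arp2/3 complex, which builds branched actin. Actin-binding and actin-bundling proteins then shape the network used for migration, phagocytosis and cell contacts. In liver, such cells are resident macrophages (Kupffer cells), monocyte-derived macrophages, neutrophils, dendritic cells and lymphocytes.

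Polyadenylated RNA of liver tissue from 9 mice of strain C57BL/6 was sequenced, with 3 mice in each of 3 groups. All mice carried floxed Scd2 (Scd2f/f), which encodes stearoyl CoA desaturase 2, a lipid-desaturating enzyme. Mice of the Scd2f/f;Col1a1-Cre group (Scd2f/f;CC) also carried a Cre recombinase under the Col1a1 promoter, which per the paper is active in hepatic stellate cells (HSC) and portal fibroblasts of this liver. Both treated groups, Scd2f/f and Scd2f/f;CC, were given 10 mg/kg of the carcinogen diethyl nitrosamine (DEN) when 2 weeks old and, per the labels, Western alcohol diet for 4 months starting at 6 weeks. The paper's methods give a longer time on the diet and state that the mice were male. Its text calls the tissue tumor-adjacent liver in the results and NTL in the RNA methods. The third group was labelled untreated Scd2f/f liver, although the protocol field of those samples repeats the DEN text, and an untreated group with Cre was not analysed here. The data set therefore compares DEN and diet against no treatment in Scd2f/f mice, and Cre against no Cre in treated mice.

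For each gene, the table gives the authors' mean of normalized counts over the 3 mice of each group, to 3 significant digits. The values behind each mean, 1 for every mouse, were not used here. So no mean is given with an SD and no difference with a replicate check or a p-value, and the depth of the libraries is unknown. The 75th percentile of the gene means was 15.5, 15.5 and 15.4 in untreated Scd2f/f, treated Scd2f/f and treated Scd2f/f;CC. Normalization to the upper quartile brings these values close to each other, so they do not show that the groups are alike. Sums of the gene means, in the order of these groups, were 820581, 658322 and 739723. In the same order, the Scd2 mean was 2.46, 6.47 and 1.87, and the mean of Col1a1, the gene whose promoter drives Cre, was 4.69, 19.6 and 4.51. Hepatocyte markers were present in every group, with summed means of 49300, 48300 and 53000 for the 11 of 12 listed markers that were in the table.

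The 9 genes lie on 8 chromosomes of GRCm38 (mm10), and positions here are those of GENCODE M21. Ptprc, which encodes CD45, spans chr1:138062861-138175708 on the minus strand. Fgr, a Src-family kinase of myeloid cells, spans chr4:132974095-133001910 on the plus strand. Coro1a, which encodes the actin-binding protein coronin 1A, spans chr7:126699773-126707787 on the minus strand. Dock2, a Rac exchange factor of blood-derived cells, spans chr11:34226815-34783892 on the minus strand. Lcp1, which encodes the actin-bundling protein L-plastin, spans chr14:75131101-75230842 on the plus strand. Chromosome 15 holds Rac2, the Rac GTPase of blood-derived cells, at chr15:78559167-78572783 on the minus strand and Nckap1l, the HEM1 subunit of the WAVE complex, at chr15:103453794-103498810 on the plus strand. Vav1, an exchange factor for Rac GTPases, spans chr17:57279100-57328031 on the plus strand. Was, which encodes WASP, the activator of Arp2/3 mutated in Wiskott-Aldrich syndrome, spans chrX:8081453-8090498 on the minus strand. In the table, Bola2 overlaps Coro1a and Fam196b overlaps Dock2 on the opposite strand, and A130071D04Rik overlaps Ptprc on its own strand. Whether the counting used strand is not given in the sources used here, so reads shared by these pairs cannot be told apart and the values of Coro1a, Dock2 and Ptprc are uncertain to that extent.

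The promoters are shown because the 9 genes had the same order of group means, and because ETS-family factors such as PU.1 are known regulators of leukocyte genes. RefSeq promoter windows on GRCm38.p6, 250 bases before to 50 after a transcript start, were matched for 7 of the 9 genes, all but Rac2 and Nckap1l. The 250 bases before the start are printed 5′ to 3′ for the 5 genes whose RefSeq start lay within 25 bases of the GENCODE start. They are chr17:57278850-57279099 on the plus strand for Vav1, chr11:34783906-34784155 on the minus strand for Dock2, chrX:8090492-8090741 on the minus strand for Was, chr4:132973845-132974094 on the plus strand for Fgr and chr14:75130873-75131122 on the plus strand for Lcp1. Capitals mark the letters AGGAAG and GAGGAAGT (ETS and PU.1 type), TGTGGT (RUNX type), GGGCGG (GC box), CCAAT and TATAAA, read on either strand.
Vav1: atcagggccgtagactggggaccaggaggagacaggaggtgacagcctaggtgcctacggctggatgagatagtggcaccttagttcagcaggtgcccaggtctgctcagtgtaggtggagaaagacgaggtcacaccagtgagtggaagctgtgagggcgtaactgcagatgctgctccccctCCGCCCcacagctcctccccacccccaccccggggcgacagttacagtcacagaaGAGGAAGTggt
Dock2: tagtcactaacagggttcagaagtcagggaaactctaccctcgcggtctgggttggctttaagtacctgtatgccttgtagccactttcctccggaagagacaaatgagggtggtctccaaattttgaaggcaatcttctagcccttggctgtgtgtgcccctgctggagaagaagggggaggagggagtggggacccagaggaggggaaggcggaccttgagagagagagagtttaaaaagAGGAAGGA
Was: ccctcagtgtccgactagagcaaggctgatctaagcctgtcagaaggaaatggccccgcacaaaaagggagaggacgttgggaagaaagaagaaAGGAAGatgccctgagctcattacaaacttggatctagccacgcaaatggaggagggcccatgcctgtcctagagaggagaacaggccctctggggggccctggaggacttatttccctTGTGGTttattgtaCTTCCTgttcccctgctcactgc
Fgr: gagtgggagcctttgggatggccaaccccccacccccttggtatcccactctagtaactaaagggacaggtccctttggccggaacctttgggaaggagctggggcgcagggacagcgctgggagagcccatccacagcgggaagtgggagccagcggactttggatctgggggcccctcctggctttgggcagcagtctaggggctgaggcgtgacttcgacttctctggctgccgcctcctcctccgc
Lcp1: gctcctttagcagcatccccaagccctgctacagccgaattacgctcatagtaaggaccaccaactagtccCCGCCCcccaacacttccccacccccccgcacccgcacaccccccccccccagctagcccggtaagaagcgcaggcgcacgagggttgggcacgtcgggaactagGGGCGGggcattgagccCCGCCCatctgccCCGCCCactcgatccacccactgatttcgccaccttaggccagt

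In the whole 300-base windows, AGGAAG was found in 5 of the 7 matched genes (Ptprc, Fgr, Vav1, Was and Dock2), against 35.4% of 32851 RefSeq windows. The RefSeq starts of Ptprc and Coro1a lay 403 and 2971 bases from their GENCODE starts, so the windows of both do not reach those starts. The longer GAGGAAGT, which contains AGGAAG, was found in Vav1 alone among the 7, where it ends 4 bases before the start, and in 3.2% of windows. Dock2 had AGGAAG 8 to 3 bases before the start and a second overlapping copy that crosses the start, so its capitals run to the end of the printed stretch. The copy in Fgr lay after the start and is outside the printed bases. Was had 2 copies of AGGAAG and held TGTGGT, which 16.8% of windows hold. GGGCGG was found in Coro1a, Lcp1 and Vav1, against 35.7% of windows, and Lcp1 had 4 copies. CCAAT was found in 0 of the 7 and in 37.4% of windows, and TATAAA in Ptprc alone and in 13.6%. The core GGAA, which AGGAAG contains, was in all 7 and in 96.0% of windows, and it is not capitalised. These matches describe letters only, and binding of a factor was not measured.

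The comparison of treated with untreated Scd2f/f liver asks how expression differs after DEN and Western alcohol diet. All 9 genes had a higher mean in treated Scd2f/f liver, by 1.76-fold (Lcp1) to 5.67-fold (Rac2), and the median of the 9 was 4.19-fold, or 2.07 on the log2 scale. At least 2-fold higher were 8 of the 9, all but Lcp1, whereas 9.37% of all genes and 6.4% of the 11784 genes whose mean over the 3 groups reached 1 (called expressed genes from here on) were. All 9 genes reached a mean of 1 over the groups, Was with 1.06. The untreated means of Was (0.406) and Rac2 (0.91) were under 1, so both reached it through the treated groups. Since these means were known when the genes were chosen, nothing is read from the difference between those shares. In bulk tissue, more cells of a type and more RNA per cell cannot be told apart.

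**Figure D1:**
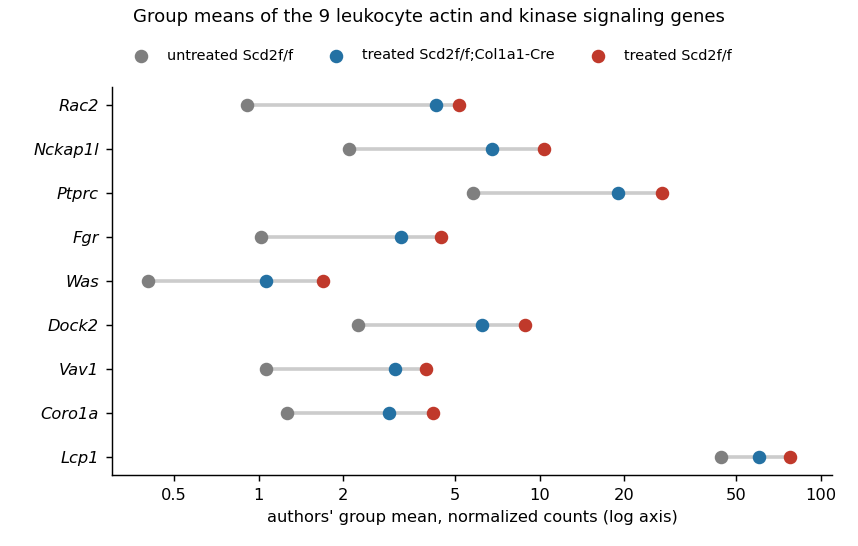
The authors' mean of normalized counts (log axis) of each of the 9 genes in untreated Scd2f/f, treated Scd2f/f;Col1a1-Cre and treated Scd2f/f liver, with 1 point for each group of 3 mice and no error bars for lack of values per mouse. In every gene the treated Scd2f/f;Col1a1-Cre point lies between the other points, and treated Scd2f/f is highest.

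Among the membrane-proximal enzymes, the Ptprc mean was 5.82 in untreated Scd2f/f, 27.2 in treated Scd2f/f and 19.0 in treated Scd2f/f;CC. The Fgr mean was 1.02, 4.45 and 3.21 in the same order. Both were over 4-fold higher in treated than untreated Scd2f/f liver, by 4.67-fold for Ptprc and 4.36-fold for Fgr, and both were lower in Scd2f/f;CC than in treated Scd2f/f.

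The exchange factors and their GTPase followed the same order. Vav1 means were 1.06, 3.95 and 3.05 in untreated Scd2f/f, treated Scd2f/f and treated Scd2f/f;CC, and Dock2 means were 2.26, 8.85 and 6.26. These are ratios of 3.73 for Vav1 and 3.92 for Dock2 in treated over untreated Scd2f/f. Rac2, which both exchange factors can activate, had means of 0.91, 5.16 and 4.27. Rac2 had the highest ratio of the 9 for treated over untreated Scd2f/f, and only 0.475% of expressed genes had a higher ratio.

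Of the activators of Arp2/3, Nckap1l had means of 2.1, 10.4 and 6.76 and Was had 0.406, 1.7 and 1.06. The ratio of treated over untreated Scd2f/f was 4.95 for Nckap1l and 4.19 for Was. The Was means were small beside a pseudocount of 1, so its ratio depends on it. When 1 was added to the means, its log2 ratio became 0.94 in place of 2.07, under the 2-fold limit.

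Coro1a and Lcp1 act on actin filaments directly. Coro1a means were 1.26, 4.16 and 2.92, a ratio of 3.3 for treated over untreated Scd2f/f. Lcp1 had means of 44.1, 77.5 and 60.2, and its ratio of 1.76 stood below those of the other 8 genes. Without Lcp1, a choice made after its value was seen, the median log2 ratio of the remaining 8 was 2.10.

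The comparison of treated Scd2f/f;CC with treated Scd2f/f liver asks what Cre-driven loss of Scd2 in Col1a1-expressing cells is accompanied by under the same treatment. All 9 genes had a lower mean in Scd2f/f;CC, with ratios from 0.624 (Was) to 0.828 (Rac2) and a median ratio of 0.707, or -0.50 on the log2 scale. Lower at any size were 49.6% of all genes and 48.4% of expressed genes. At least 2-fold lower were 0 of the 9, against 4.07% of all genes and 1.54% of expressed genes. At a limit of 1.5-fold, Was (1.6-fold lower) and Nckap1l (1.54-fold lower) passed, 2 of the 9, against 9.82% of all genes and 4.9% of expressed genes. The other 7 were 1.21-fold (Rac2) to 1.43-fold (Ptprc) lower. Whether differences of this size exceed the spread between mice was not assessed, since only group means were used.

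Both comparisons use the treated Scd2f/f mean, so a high mean of that group by itself raises the ratio to untreated liver and lowers the ratio of Scd2f/f;CC to it. Of all genes at least 2-fold higher in treated than in untreated Scd2f/f liver, 88.7% of 1570 had a lower mean in Scd2f/f;CC, and 89.1% of the 754 expressed genes among them did. The 8 of the 9 genes in that class were all lower in Scd2f/f;CC, a share near that background, so the direction is no result about these genes. For Scd2f/f;CC over treated Scd2f/f, those 754 expressed genes had a median log2 ratio of -0.46 and quartiles of -0.74 and -0.21. The median of -0.50 for the 9 genes lies between these quartiles, so its size is no result about them either. A Scd2f/f;CC mean between the other means with treated Scd2f/f highest was found in 9 of 9 genes, in 24.3% of all genes and in 24.4% of expressed genes. These shares also count genes that were not higher in treated Scd2f/f, and the 9 genes were chosen with their means known. So nothing is read from that difference.

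**Figure D2:**
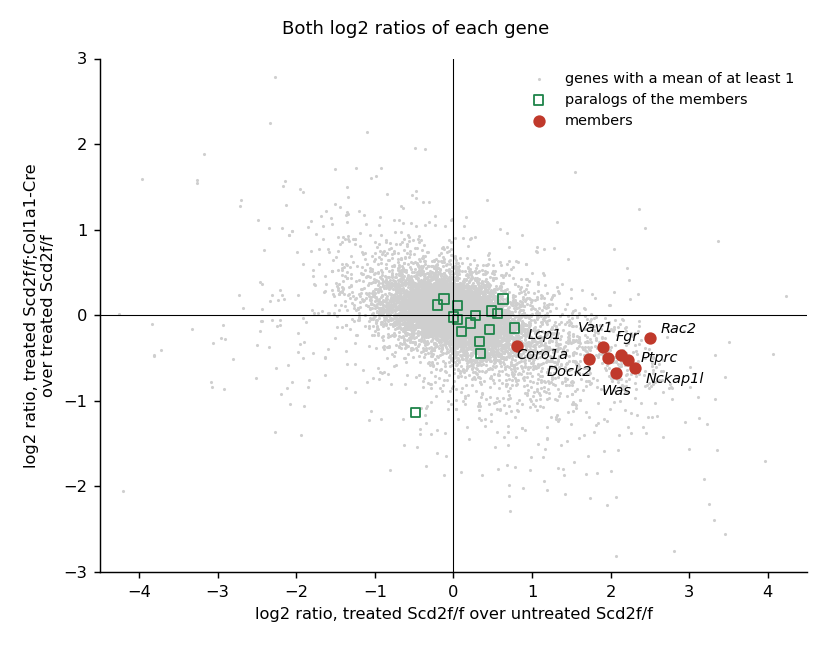
Log2 ratio of treated over untreated Scd2f/f (x axis) and of treated Scd2f/f;Col1a1-Cre over treated Scd2f/f (y axis) for expressed genes (mean of 1 or more, grey), paralogs of the 9 genes (green squares) and the 9 genes (red, members), with 26 of 11784 genes outside the axes. Of the 9 genes, 8 lie right of 1 on the x axis and all lie between -0.68 and -0.27 on the y axis, and both axes use the treated Scd2f/f mean.

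Against untreated Scd2f/f, the treated Scd2f/f;CC means were still higher in all 9 genes, from 1.37-fold (Lcp1) to 4.69-fold (Rac2), with a median of 2.88-fold or 1.52 on the log2 scale. Treatment and Cre both differ in this comparison. At least 2-fold higher were 8 of 9, against 6.41% of all genes and 4.51% of expressed genes. With 1 added to the means, 5 of the 9 were. The Scd2f/f;CC means were also known when the genes were chosen, so nothing is read from the difference between those shares. As a share of the excess of treated over untreated Scd2f/f, the excess of Scd2f/f;CC was 48.2% for Lcp1, 50.5% for Was, 56.1% for Nckap1l, 57.2% for Coro1a and 60.7% for Dock2. It was 61.6% for Ptprc, 63.8% for Fgr, 68.9% for Vav1 and 79.1% for Rac2. Rac2 thus kept the largest share of its excess and Lcp1 the smallest, without an error on either share.

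Each of the 9 genes has relatives that are expressed in many cell types. These were taken by gene family and the 9 genes were chosen on their means, so the values of each pair are a description. Of 17 such paralogs, 16 were in the table, all but Rac3. For treated over untreated Scd2f/f their log2 ratios ran from -0.48 to 0.78 with a median of 0.25, 0 of 16 were 2-fold higher, and the leukocyte gene had the higher ratio in 16 of 16 pairs. Rac1, the widely expressed Rac GTPase, had means of 62.6 in untreated Scd2f/f, 67.2 in treated Scd2f/f and 58.9 in treated Scd2f/f;CC, a log2 ratio of 0.10 for treated over untreated beside 2.50 for Rac2. Wasl, which encodes the broadly expressed N-WASP, had nearly equal means of 51.3, 51.2 and 50.6, whereas the log2 ratio of Was was 2.07. Nckap1, the WAVE subunit outside blood-derived cells, had means of 72.2, 84.1 and 79.0, a log2 ratio of 0.22 beside 2.31 for Nckap1l.

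The exchange factors showed the same contrast. Dock1 means were 19.2, 16.7 and 18.2 and Dock5 means were 16.0, 14.7 and 16.8, so both were slightly lower in treated Scd2f/f where Dock2 was 3.92-fold higher. Vav2 means were 16.9, 17.5 and 16.9, and Vav3 means were 1.16, 1.41 and 1.41. Among kinases related to Fgr, the highest ratio was that of Fyn, with means of 3.1, 5.32 and 4.81 and a log2 ratio of 0.78. Src and Yes1 had log2 ratios of 0.34 and 0.05. Of receptor phosphatases set beside Ptprc, Ptpra and Ptprj had log2 ratios of 0.46 and 0.56, against 2.22 for Ptprc. Coro1b and Coro1c had log2 ratios of 0.48 and 0.33, against 1.72 for Coro1a.

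The pair closest in value involved Lcp1. Pls3 (T-plastin) had means of 30.8, 47.6 and 54.3, a log2 ratio of 0.63 for treated over untreated Scd2f/f beside 0.81 for Lcp1. In Scd2f/f;CC the Pls3 mean was higher than in treated Scd2f/f, by 0.19 on the log2 scale, while that of Lcp1 was lower, by -0.36 on that scale. Pls1 (I-plastin) had means of 1.02, 0.732 and 0.333. For treated Scd2f/f;CC over treated Scd2f/f, the median log2 ratio of the 16 paralogs was -0.03, and the leukocyte gene had the higher ratio in 1 of 16 pairs, that of Lcp1 with Pls1. Whether counting divided reads between similar copies is not stated beyond the use of an expectation-maximization method, so values of close relatives are uncertain to that extent.

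**Figure D3:**
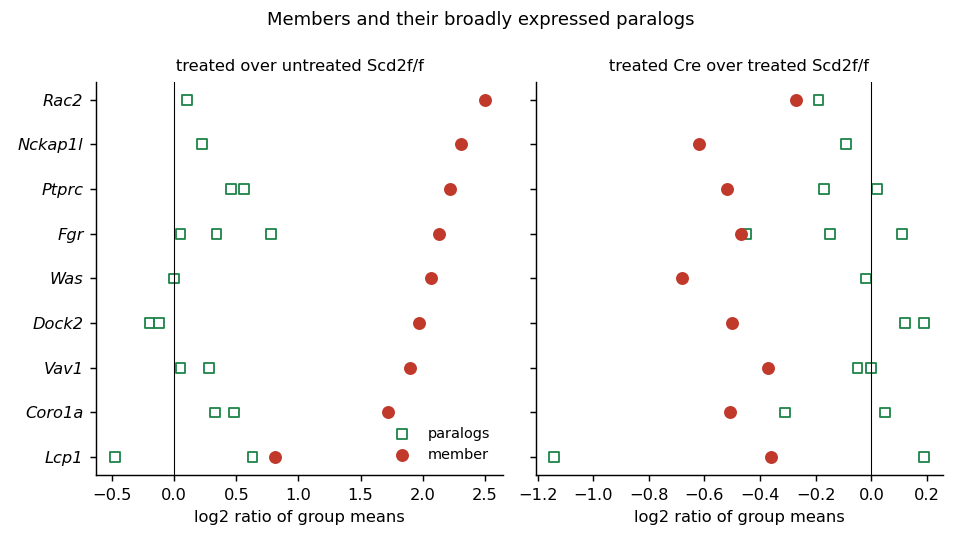
Log2 ratio of treated over untreated Scd2f/f (left) and of treated Scd2f/f;Col1a1-Cre over treated Scd2f/f (right) for each of the 9 genes (red, member) and its broadly expressed paralogs (green squares), without error bars for lack of values per mouse. Every paralog lies left of its gene in the left panel, with the shortest distance for Lcp1 (0.81) and Pls3 (0.63).

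Other genes of the same machinery were taken from lists fixed by name with earlier results of these data known. Of 28 kinases, phosphatases and adaptors of blood-derived cells in the table, 20 were at least 2-fold higher in treated than untreated Scd2f/f and 0 were 2-fold lower, with a median log2 ratio of 1.52, beside 0.03 for all expressed genes. Pik3cd, the leukocyte PI3-kinase catalytic subunit, had the largest ratio among expressed genes of the list, with means of 0.972, 4.37 and 3.1. Pik3cg was in the middle, with means of 0.746, 1.93 and 1.3. Zap70, a T-cell receptor kinase, had the smallest ratio and the opposite order, with means of 3.9, 2.57 and 3.7. For Scd2f/f;CC over treated Scd2f/f, the median log2 ratio of this list was -0.49 with 2 of 28 at least 2-fold lower, Ptpn7 (0.567 and 0.194) and Lat2 (0.384 and 0.167), both with all means under 1 and named after their values were seen.

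Of 23 actin-binding and adhesion partners, 18 were at least 2-fold higher in treated than untreated Scd2f/f, with a median log2 ratio of 1.78. Selplg, which encodes the adhesion ligand PSGL-1, had means of 0.374, 3.01 and 1.68. Fermt3 (kindlin-3), which activates leukocyte integrins, had 1.17, 4.43 and 3.22, and Add3 had 10.3, 9.75 and 9.39. For Scd2f/f;CC over treated Scd2f/f the median log2 ratio was -0.46, and only Capg, named after its value was seen, was 2-fold lower (3.65 and 1.54). Both lists thus had medians close to -0.50, the median of the 9 genes, in that comparison. They were also close to -0.46, the median of the 754 expressed genes at least 2-fold higher in treated than untreated Scd2f/f. The closeness is therefore not particular to these lists.

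The WAVE and Arp2/3 complexes are used in most cell types, and the lists of their subunits had smaller median ratios. The WAVE list leaves out Nckap1l, which is counted among the 9 genes. Of 9 WAVE complex subunits in the table, 2 were at least 2-fold higher in treated than untreated Scd2f/f, and the median log2 ratio was 0.35. These were Cyfip2, with means of 1.2, 3.52 and 2.22, and Abi3, with 1.83, 4.36 and 3.95, of which Abi3 was named after its value was seen. Cyfip1 had means of 30.1, 38.3 and 38.8 and Brk1 had 16.9, 15.5 and 15.2. Of 10 Arp2/3 subunits, 0 were 2-fold higher and the median log2 ratio was 0.13. Arpc1b had the largest ratio among them, with means of 13.9, 20.3 and 16.4, Arpc2 had 46.2, 49.5 and 40.4, and Arpc5l had 19.9, 15.4 and 16.1. For Scd2f/f;CC over treated Scd2f/f the medians were -0.06 for WAVE and -0.14 for Arp2/3 subunits. Arpc1b stands in both the Arp2/3 list and the list of actin-binding partners, and Nckap1 in both the WAVE list and the paralogs.

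Markers of leukocytes had ratios close to those of the 9 genes. Of 12 general leukocyte markers, 11 were at least 2-fold higher in treated than untreated Scd2f/f, with a median log2 ratio of 2.14, and their summed means were 15.6 in untreated Scd2f/f, 69.4 in treated Scd2f/f and 49.6 in treated Scd2f/f;CC. For Scd2f/f;CC over treated Scd2f/f, 11 of 12 were lower, 0 by 2-fold, with a median log2 ratio of -0.50. That of the 754 expressed genes at least 2-fold higher in treated than untreated Scd2f/f was -0.46. Cd52, a leukocyte surface glycoprotein, had means of 0.867, 5.92 and 3.3, and Laptm5 had 2.94, 13.7 and 10.9. Itgb2 stands in this list and among the actin-binding and adhesion partners. The part of leukocyte number in the values of the 9 genes was not tested.

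Of 19 macrophage markers, 18 were at least 2-fold higher in treated than untreated Scd2f/f, with a median log2 ratio of 2.10 and summed means of 171, 604 and 479. Lyz2 (lysozyme), in the middle of the list, had means of 24.9, 107 and 63.7. Mrc1, the mannose receptor, had the smallest ratio, with means of 37.8, 57.5 and 55.9. Gpnmb, a marker of lipid-laden macrophages, had the largest, with means of 0.0937, 8.98 and 0.638. For Scd2f/f;CC over treated Scd2f/f the median log2 ratio was -0.52 with a wider range than that of the 9 genes, from -3.82 (Gpnmb) to 0.30 (Timd4). Named after their values were seen, Cx3cr1 (2.54 and 0.482), Trem2 (1.8 and 0.459) and Cd14 (3.26 and 1.41) were the other 3 markers at least 2-fold lower in Scd2f/f;CC. With 1 added to the means, 2 in place of 4 macrophage markers were at least 2-fold lower, and the median log2 ratio was -0.5. In all, 17 of 19 were lower in Scd2f/f;CC than in treated Scd2f/f. The other 2, also named after their values were seen, were the Kupffer cell markers Clec4f (71.2 and 71.7) and Timd4 (4.81 and 5.94). Kupffer cell markers were not all alike in this. Vsig4 (17.2 and 14.1), Marco (14.6 and 10.7) and Cd5l (114 and 99.0), named after their values were seen, were among the 17 with lower means. The part of macrophage markers in the values of the 9 genes was not tested.

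A mean of 1 over the groups was reached by 2 of 7 neutrophil, 3 of 8 dendritic cell and 0 of 16 T and NK cell markers in the table. All 7 neutrophil markers in the table, of 13 listed, were at least 2-fold higher in treated than untreated Scd2f/f, with summed means of 1.42, 5.65 and 4.58, but 1 of 7 was when 1 was added to the means. The 16 T and NK cell markers had summed means of 3.04, 9.9 and 5.71, and 13 were at least 2-fold higher in treated than untreated Scd2f/f, but 0 were when 1 was added to the means. Their median log2 ratio was 1.94 for treated over untreated Scd2f/f and -0.84 for Scd2f/f;CC over treated Scd2f/f, with 5 at least 2-fold lower in Scd2f/f;CC. With 1 added to the means, that second median was -0.22 and 0 were 2-fold lower. The 8 dendritic cell markers had summed means of 4.88, 11.0 and 7.13, with a median log2 ratio of 1.18 for treated over untreated Scd2f/f. Of these, Itgax (CD11c) had means of 0.235, 3.66 and 1.12, Clec9a had 1.03, 1.48 and 1.15, and Zbtb46 had 2.62, 3.35 and 3.31. The part of each in the values of the 9 genes was not tested.

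**Figure D4:**
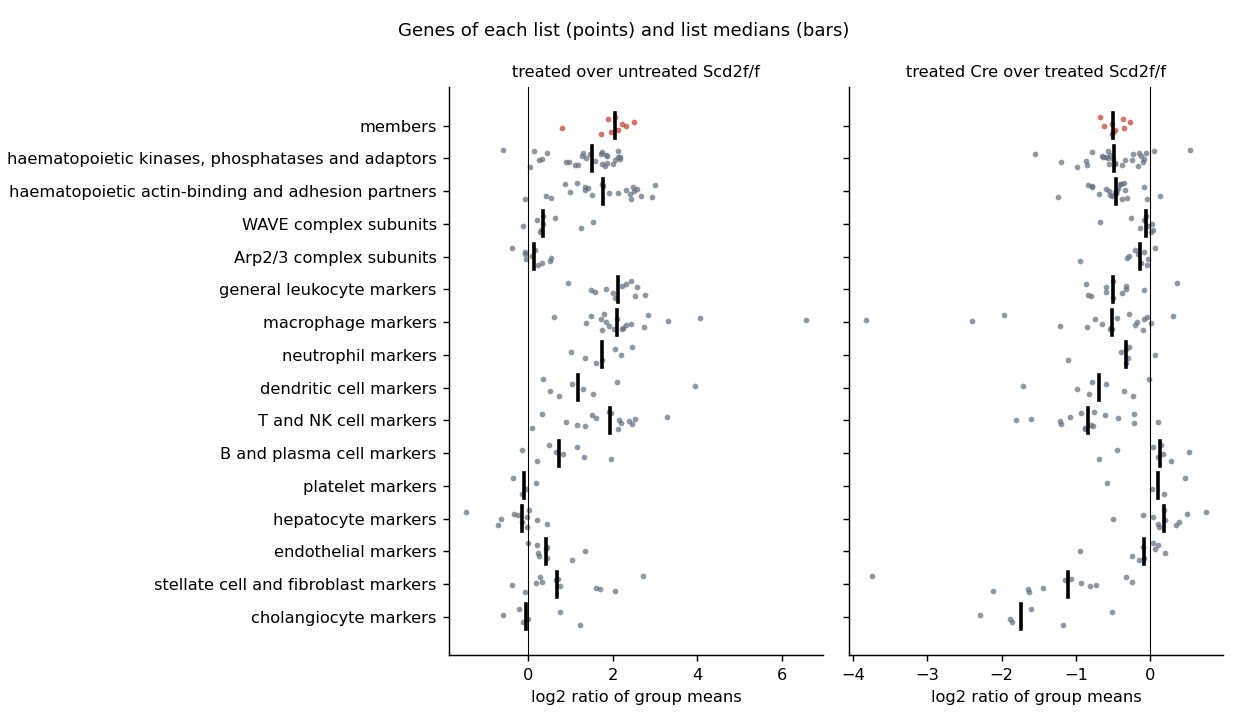
Log2 ratios of treated over untreated Scd2f/f (left) and of treated Scd2f/f;Col1a1-Cre over treated Scd2f/f (right), with 1 point per gene, red for the 9 genes (members) and grey for each list, and a black bar at the median. Medians of general leukocyte and macrophage markers (2.14 and 2.10 left, -0.50 and -0.52 right) lie beside those of the 9 genes (2.07 and -0.50), and those of Arp2/3 subunits (0.13 and -0.14) lie near 0. Not drawn, the 754 expressed genes at least 2-fold higher in treated than untreated Scd2f/f had a median of -0.46 in the comparison on the right.

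Of 11085 genes that reached a mean of 1 in each of the groups, those nearest to the 9 genes, by distance of the pair of log2 ratios from the pair of medians (2.07 and -0.50), included Pld4, Fam129a, C1qa, Syk, Ly86, Cd300ld, Mpeg1, Klra2 and Gbp6. Their distances ran from 0.01 (Pld4) to 0.13. Distances of the 9 genes themselves ran from 0.07 (Fgr) to 1.26 (Lcp1). C1qa, a complement component that macrophages make, had means of 8.14, 33.2 and 23.1 in untreated Scd2f/f, treated Scd2f/f and treated Scd2f/f;CC. Syk, a kinase that signals beside Fgr in myeloid cells, had means of 1.95, 8.53 and 5.74. Likeness here rests on 3 group means per gene.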

How the data were processed

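The authors isolated RNA from liver, prepared libraries with the TruSeq RNA v2 kit and sequenced them on a NextSeq instrument. The submitters' processing notes name STAR 2.6.1, Partek 6 and the mm10 build. By the paper's methods, reads were assigned to Gencode M3 genes with the Partek E/M method, normalized to the upper quartile and compared by Partek Gene Specific Analysis. The deposited table holds 16755 genes and 18 columns, of which 4 give the signal of a group, the authors' mean of normalized counts. Treated Scd2f/f is given in 2 of these, with 0 differences. Scaling by gene length is not stated, so levels were not compared between genes. The authors' p-values, FDR, ratios and fold changes were not used.

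Ratios of the group means were computed per gene on the log2 scale without a pseudocount, with a limit of 2-fold. No test was made, since values per mouse were not used, and depth per sample is unknown. The 9 genes, their paralogs and 16 gene lists were chosen with earlier results of these data known. The text names the 9 genes, their paralogs, Scd2 and Col1a1, the genes with the largest, middle and smallest treated over untreated Scd2f/f ratio in each list among expressed genes (mean over the groups of 1 or more), any list gene 2-fold against its list, and the 10 genes nearest to the medians of the 9. Some items of the lists are not reported here, and genes outside it are said to be named after their values were seen. Overlapping and promoter positions come from GENCODE M21 and RefSeq GRCm38.p6. Alternatives were pseudocounts of 0.1 and 1, centring, limits of 1.5-fold and 3-fold and other backgrounds. The counting of 2-fold calls was tested on simulated data. Scripts ran under Python 3.11.15 and used pandas 2.3.3, NumPy 2.4.6 and Matplotlib 3.10.9.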

Additional observations from a re-analysis of the deposited data

How the results depend on the processing

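Values per mouse were not used, so leaving out a mouse was not run, and no paired analysis was possible because no result comes from a test. With 1 added to each mean, the median log2 ratio of the 9 genes for treated over untreated Scd2f/f was 1.43 in place of 2.07, and 5 in place of 8 genes were at least 2-fold higher in Scd2f/f;CC than in untreated Scd2f/f. That count was 4 at a limit of 3-fold. For Scd2f/f;CC over treated Scd2f/f, 2 genes were lower at a limit of 1.5-fold in place of 0 at 2-fold. The other 29 values over the 9 genes stayed within 1.5 times. A pseudocount of 1 moved 7 of 27 ratios of single genes by more than that, while 0.1, centring and the other treated Scd2f/f column moved 0. Centring shifts ratios by 0.03, 0.01 and 0.04, the medians of all expressed genes. Of the values for lists, paralogs, single genes and backgrounds, 268 stayed within 1.5 times and 50 moved further, most with a pseudocount of 1. With it, 9 of 28 kinases, phosphatases and adaptors were 2-fold higher in treated Scd2f/f, in place of 20. So were 1 in place of 7 neutrophil, 1 in place of 5 dendritic cell and 0 in place of 13 T and NK cell markers, whose median log2 ratios were 0.58, 0.29 and 0.41 in place of 1.75, 1.18 and 1.94. The share of genes at least 2-fold lower in Scd2f/f;CC was 4.07% of all and 1.54% of expressed genes. Without Lcp1, the medians for treated over untreated Scd2f/f, Scd2f/f;CC over treated Scd2f/f and Scd2f/f;CC over untreated Scd2f/f were 2.10, -0.51 and 1.59.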

Other observations

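Markers of other liver cells differed between the groups in other ways than the 9 genes. The 12 stellate cell and fibroblast markers had summed means of 208 in untreated Scd2f/f, 352 in treated Scd2f/f and 200 in treated Scd2f/f;CC, and 7 of them were at least 2-fold lower in Scd2f/f;CC than in treated Scd2f/f, with a median log2 ratio of -1.10. With 1 added to the means, 3 were, and the median was -0.73. Pdgfrb, a growth factor receptor of stellate cells, had means of 6.08, 9.91 and 4.75 in that order. The 6 cholangiocyte markers had summed means of 58.9, 53.6 and 19.3, most of it from Spp1 (52.3, 45.1 and 14.8). Of the 6, 5 were at least 2-fold lower in Scd2f/f;CC than in treated Scd2f/f, but 1 was when 1 was added to the means. Among these markers, Epcam had means of 1.97, 1.82 and 0.5, and Cldn7, with 0.194, 0.451 and 0.199, was over 2-fold higher in treated than untreated Scd2f/f while the list median was -0.05 on the log2 scale. The 9 endothelial markers had summed means of 127, 169 and 169, with a median log2 ratio of -0.09 for Scd2f/f;CC over treated Scd2f/f, 5 lower and 4 higher. Lyve1 had means of 2.6, 6.6 and 3.44, Oit3 had 9.8, 13.1 and 13.7, and Tie1 had 5.42, 5.45 and 5.6.

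The 8 B and plasma cell markers in the table had summed means of 5.83, 7.62 and 6.49 and a median log2 ratio of 0.13 for Scd2f/f;CC over treated Scd2f/f, where that of the 9 genes was -0.50. Only 1 of the 8, Jchain, reached a mean of 1 over the groups, and its log2 ratio was -0.45 in that comparison. With 1 added to the means, the median of the 8 was 0.04. The 4 platelet markers in the table had summed means of 2.01, 1.92 and 1.96. Their median log2 ratio for Scd2f/f;CC over untreated Scd2f/f was 0.01, and with centring it was -0.04. Zap70 was the only one of the 28 kinases, phosphatases and adaptors with a lower mean in treated than in untreated Scd2f/f.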
